A study of Mus musculus with 6 samples.

Results

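The genes described here are 34 regulators of apoptosis, the programmed death of cells: BCL-2 family proteins, caspases, the apoptosome, inhibitor of apoptosis proteins and death receptor adaptors. They were taken by symbol from the deposited table of 23057 genes, and all 34 were found. RNA was measured in whole brains of C57BL/6 mice, 3 cranially irradiated with X-rays to a total dose of 10 Gy and 3 mock-irradiated, each taken 30 days later after perfusion with phosphate-buffered saline. The title of the series is about radiation-induced senescence and glioblastoma recurrence, while these brains are labelled only by strain, tissue and treatment, with no tumor, transgene or drug named. The libraries were made from total RNA depleted of ribosomal RNA, with strand kept, at about 30 to 40 M single-end reads each per the labels. The unit is FPKM, a fragment number scaled by transcript length and by a library total, so levels can be roughly compared between genes. Which total was used is not given in the sources used here, and genes that share exons with others compare less surely.

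In the mitochondrial route of apoptosis, BH3-only proteins sense damage and bind the anti-apoptotic BCL-2 proteins, which hold back the pore-forming effectors. Once the effectors open the outer mitochondrial membrane, cytochrome c leaves, APAF1 assembles into the apoptosome, and caspases are activated. Inhibitor of apoptosis proteins block caspases, and the death receptor route reaches them through FADD and caspase-8. In the mature brain neurons are known to resist this route, while newborn neurons and oligodendrocyte precursors are known to be sensitive to radiation.

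BCL-2 proteins bind each other through a short segment, the BH3 region, after which the BH3-only class is named. A search of the coding sequences (GENCODE, GRCm38, sense strand) found a single match to a BH3 pattern of 9 codons in each of 14 of the 15 family members searched. Anti-apoptotic genes and effectors were included, and Pmaip1 had 2 matches and its sequence is not shown. The pattern itself required leucine or methionine first, and aspartate after glycine, alanine or serine, so every match has these residues. How often other proteins match was not counted. The 6 stretches shown were picked from the members that changed or that carry much of their class's RNA. Bcl2l2, which also carries much of its class's RNA, is not shown. Capitals mark the first codon, whose residue sits in a hydrophobic pocket of the partner protein, and the codon pair ending in aspartate.
Hrk: CTGcaggcgctgGGCGACgagctgcac
Bmf: CTTcagtgtattGCAGACcagttccat
Bad: CTCcgaaggatgAGCGATgagtttgag
Bok: CTGctgcgcttgGGAGATgagctggag
Bax: CTCcggcgaattGGAGATgaactggac
Bcl2l1: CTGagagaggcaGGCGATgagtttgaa
They lie at chr5:118169891-118169917 (+ strand) in Hrk, chr2:118545100-118545126 (− strand) in Bmf, chr19:6950792-6950818 (+ strand) in Bad, chr7:45465997-45466023 (− strand) in Bax and chr2:152829697-152829723 (− strand) in Bcl2l1. In Bok the stretch is split by an intron and spans chr1:93686657-93689170 (+ strand). Of the residues the pattern allowed before the aspartate, glycine (a GGN codon) stood there in 11 of the 14 stretches. Another codon stood there in the other 3, Bmf and Bad among them.

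Markers of brain regions differed between the groups, and the label of whole brain has to be read beside them. Over 10 cerebellar neuron markers the summed level was 135 to 283 FPKM in irradiated libraries and 1237 to 1765 FPKM in mock libraries, and 9 of the 10 fell and 0 rose. Gabra6, which defines cerebellar granule cells, was listed at 0 in 1 irradiated library. Over 8 telencephalic neuron markers the sum was 426 to 815 FPKM in irradiated libraries and 112 to 264 FPKM in mock libraries, with the lowest value in mock 2 and the highest in irradiated 3, and 3 of the 8 rose. For 8 hippocampal markers the sums were 134 to 195 FPKM in irradiated and 41.3 to 60.6 FPKM in mock libraries, and 5 rose. Summed levels of 7 general neuron markers overlapped, at 2684 to 3057 FPKM in irradiated and 2640 to 3063 FPKM in mock libraries. Microglial markers (10 genes, 1 called higher) summed to 169 to 278 FPKM in irradiated and 152 to 178 FPKM in mock libraries. Oligodendrocyte precursor markers (7 genes, 3 called lower) summed to 140 to 177 FPKM in irradiated and 193 to 260 FPKM in mock libraries, and myelin markers (8 genes, 2 called lower) to 2475 to 4361 FPKM in irradiated and 5313 to 6384 FPKM in mock libraries. Astrocyte markers (8 genes, 1 called lower) summed to 1107 to 1266 FPKM in irradiated and 1423 to 1605 FPKM in mock libraries, and endothelial markers (7 genes, none called) to 85.7 to 103.7 FPKM in irradiated and 106 to 137 FPKM in mock libraries. Ependymal and choroid plexus markers (6 genes, 1 called lower) overlapped, and the 5 T cell markers in the table were all under the filter, with Cd3e, Cd3g, Cd8a and Cd2 listed at 0 in at least 1 library. In bulk tissue, fewer cells of a type and less RNA per cell cannot be told apart, and regional makeup and irradiation cannot be told apart here.

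**Figure D1:**
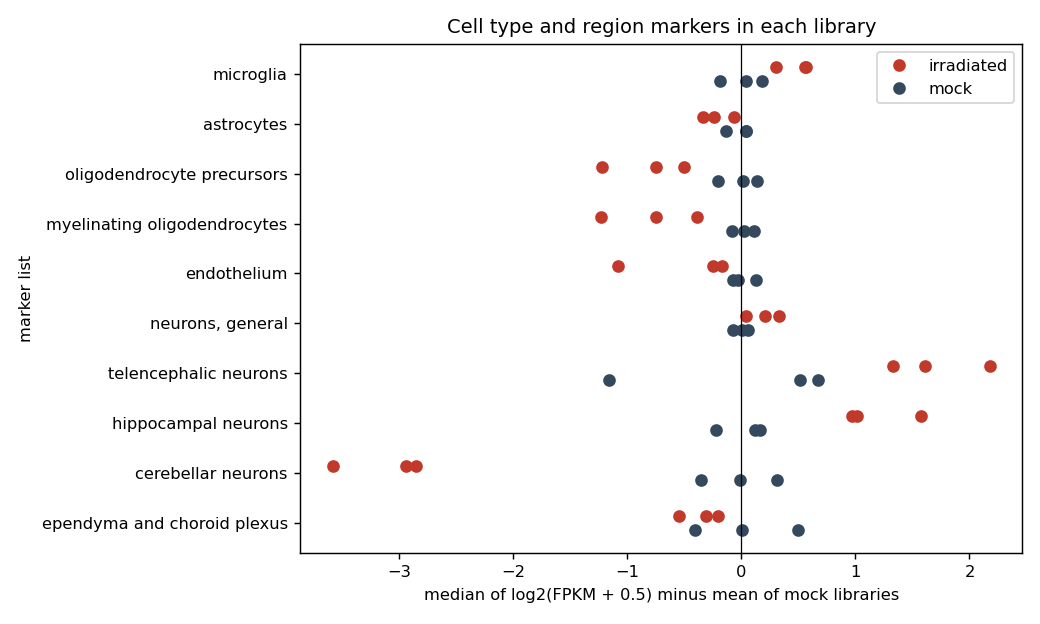
Median of log2(FPKM + 0.5) over each marker list, minus the mean of the mock libraries, in every library; red points are irradiated and dark points mock. The cerebellar list has the widest gap between the groups, and the hippocampal and telencephalic lists do not overlap either. Medians of the microglial, oligodendrocyte precursor, myelin and endothelial lists also do not overlap, while those of the astrocyte, general neuron and ependymal lists do. Mock 2 lies apart from the other mock libraries on the telencephalic list.

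Every gene averaging 0.5 FPKM or more across the libraries was tested with limma on log2(FPKM + 0.5), with Benjamini-Hochberg adjustment over all 14585 tested genes, and a gene was called at an adjusted p under 0.05. Of the 34 apoptosis genes 32 were tested; Bik and Ripk3 were under the filter. Of the 32, 3 were called higher (Hrk, Bok and Apaf1) and 1 lower (Bmf) after irradiation. That is 12.5% of the 32, against 7.72% of all tested genes called in either direction (3.48% higher and 4.24% lower). Before adjustment, limma gave a p under 0.05 to 5 of the 32 on the higher side (all genes, 11.7%) and to 4 on the lower side (all genes, 13.9%). The median log2 change of the 32 was -0.19, beside -0.02 over all tested genes. Among the 32, 9 genes lay above 0 and 23 below, beside 7032 above and 7553 below among all tested genes. The members were chosen with results known, and this lean was not tested. Irradiated and mock libraries did not overlap for 13 of the 32 genes, 40.6%, against 31.5% of all tested genes: 5 lay above mock (all genes, 13.7%) and 8 below (all genes, 17.7%). With 3 mice against 3 an exact permutation test cannot give a p under 0.1, so each p comes from the limma fit. Each library is a separate mouse per the series' design.

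**Figure D2:**
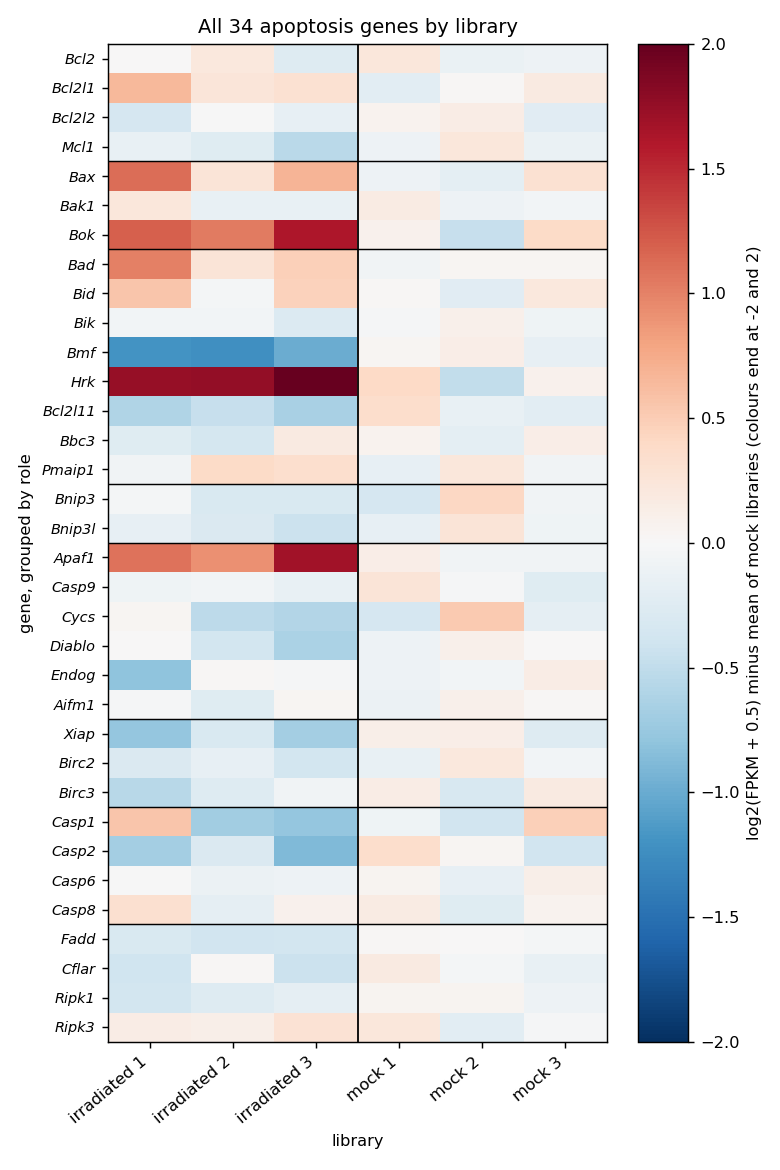
Each cell is log2(FPKM + 0.5) of a gene in a library minus its mean in the 3 mock libraries, with irradiated libraries left and mock libraries right and horizontal lines between roles. Rows of Hrk, Bok and Apaf1 are red in every irradiated library, and the row of Bmf is blue in every irradiated library.

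The BH3-only class held the largest changes in both directions. Hrk, or Harakiri, a BH3-only protein known from neurons deprived of growth factor (GRCm38 chr5), had 7.64, 7.74 and 10.9 FPKM in irradiated libraries, against 2.71, 1.24 and 2.10 FPKM in mock libraries. Every irradiated library was far above every mock library, and the lowest value was in mock 2, the library lowest in telencephalic markers. The mean was 8.77 ± 1.87 FPKM in irradiated and 2.02 ± 0.74 FPKM in mock libraries (SD, n = 3 each), a ratio of means of 4.35. On the log2 scale the change was 1.91 (SE 0.26, limma adjusted p = 0.0039). The call held when any 1 library was left out (limma adjusted p = 0.0058 to 0.018).

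Bmf, a BH3-only protein tied to the cytoskeleton in healthy cells (chr2), went the other way. It had 0.802, 0.775 and 1.00 FPKM in irradiated libraries, against 2.56, 2.76 and 2.15 FPKM in mock libraries. All 3 irradiated libraries lay close together below the mock libraries. The log2 change was -1.14 (SE 0.18, limma adjusted p = 0.0075), and leaving out any 1 library gave adjusted p = 0.013 to 0.043. The FPKM ratio of Hrk to Bmf was 9.53, 9.99 and 10.9 in irradiated libraries, against 1.06, 0.447 and 0.975 in mock libraries.

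The other BH3-only genes tested did not pass. Bcl2l11, which encodes BIM, an activator that can bind the effectors directly, had 0.918, 1.06 and 0.865 FPKM in irradiated libraries, against 2.25, 1.44 and 1.37 FPKM in mock libraries. These did not overlap, but the adjusted p was 0.12 (log2 change -0.57, 95% interval -1.04 to -0.11). Bad, a sensitizer regulated by growth factor signalling, had 82.2, 49.0 and 57.2 FPKM in irradiated libraries, against 38.8, 41.8 and 41.9 FPKM in mock libraries. Here the groups did not overlap either, irradiated 1 was well above the rest, and the adjusted p was 0.12 (log2 change 0.58, 95% interval 0.11 to 1.05). Of Bad's exon bases 21.6% also lie in Gpr137 on the opposite strand, and the counting's use of strand is not given in the sources used here.

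Bid, which links caspase-8 to mitochondria, had 11.8, 7.66 and 11.0 FPKM in irradiated libraries, against 8.01, 6.66 and 9.27 FPKM in mock libraries, and the groups overlapped. Bbc3, which encodes PUMA, a p53 target and strong activator, had 4.41, 4.04 and 6.11 FPKM in irradiated libraries, against 5.59, 4.60 and 5.88 FPKM in mock libraries. Its interval for the log2 change ran from -0.59 to 0.30. Pmaip1, which encodes NOXA, a sensitizer and another p53 target, had 0.816, 1.30 and 1.24 FPKM in irradiated libraries, against 0.731, 1.12 and 0.821 FPKM in mock libraries. Both p53 targets had overlapping groups and adjusted p-values of 0.68 and 0.54 in limma. Bik, a sensitizer, stayed at or under 0.143 FPKM in every library and was listed at 0 in irradiated 3.

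**Figure D3:**
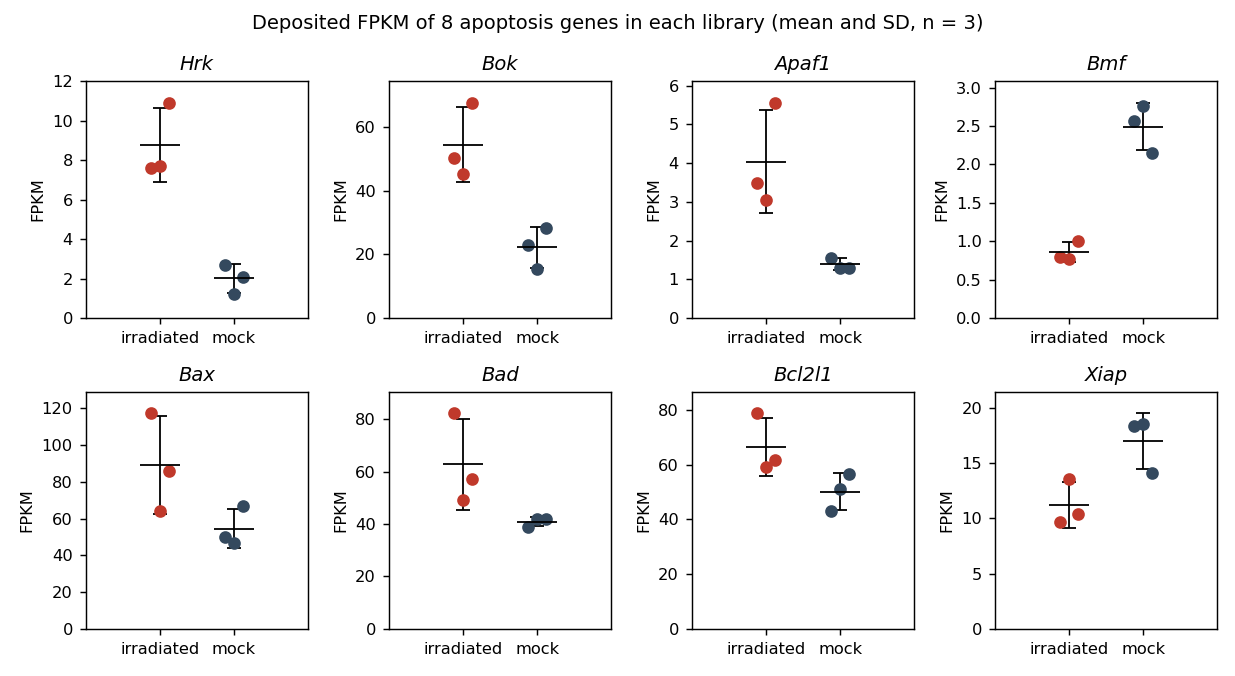
Deposited FPKM of 8 genes in each library, with irradiated libraries left and mock libraries right; bars are the mean and SD of 3 libraries. Hrk, Bok and Apaf1 were called higher and Bmf lower, while Bax, Bad, Bcl2l1 and Xiap were not called; the groups overlap for Bax only.

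Among the pore-forming effectors, Bok was the one that rose. Bok, an effector with a debated mode of action that is expressed in neurons (chr1), had 50.1, 45.2 and 67.6 FPKM in irradiated libraries, against 22.9, 15.5 and 28.4 FPKM in mock libraries. Every irradiated library was above every mock library, with the lowest value in mock 2 and the highest in irradiated 3. The log2 change was 1.29 (SE 0.25, limma adjusted p = 0.020), and the mean was 54.3 ± 11.8 FPKM in irradiated and 22.3 ± 6.43 FPKM in mock libraries (SD, n = 3 each). The call was lost without irradiated 3 (limma adjusted p = 0.073), mock 1 (0.062) or mock 2 (0.051).

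Bax, the main effector of neurons, had 117.4, 64.3 and 86.2 FPKM in irradiated libraries, against 49.9, 46.9 and 66.6 FPKM in mock libraries. Irradiated 2 fell inside the mock range, and the log2 change of 0.68 (95% interval 0.12 to 1.24) did not pass (limma adjusted p = 0.13). Bak1, the other main effector, had 7.51, 5.67 and 5.72 FPKM in irradiated libraries, against 7.16, 5.91 and 6.09 FPKM in mock libraries. The groups of Bak1 overlapped throughout (95% interval for the log2 change -0.42 to 0.38). Of Bax's exon bases 22.1% are shared with Gm45808 on the same strand. In the mock libraries Bax was the most abundant effector by FPKM in each library, and Bak1 the least abundant.

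None of the 4 anti-apoptotic genes was called. Bcl2l1, which encodes BCL-XL, had 78.8, 59.0 and 61.6 FPKM in irradiated libraries, against 43.1, 50.9 and 56.4 FPKM in mock libraries. The groups did not overlap, but the log2 change of 0.40 had an interval of -0.01 to 0.81 (limma adjusted p = 0.21). Mcl1, a short-lived protein that holds back BAK and BIM, had 21.1, 19.6 and 15.9 FPKM in irradiated libraries, against 21.8, 27.3 and 21.3 FPKM in mock libraries. Its irradiated values were below all mock values by a narrow gap (log2 change -0.31, 95% interval -0.71 to 0.09). Bcl2l2, which encodes BCL-W, a neuronal survival protein, had 44.3, 55.4 and 49.9 FPKM in irradiated libraries, against 58.8, 62.1 and 47.6 FPKM in mock libraries. Bcl2, the founding member, had 2.48, 2.94 and 1.97 FPKM in irradiated libraries, against 2.97, 2.20 and 2.27 FPKM in mock libraries. Both overlapped between the groups. Bcl2l1 and Bcl2l2 together carried most of this class: in irradiated libraries Bcl2l1 held 48.2 ± 5.33% of the class FPKM and Bcl2l2 36.4 ± 5.45%, and in mock libraries Bcl2l1 held 38.0 ± 5.45% and Bcl2l2 42.4 ± 4.65% (SD, n = 3 each). Of Bcl2l2's exon bases 14.6% are shared with Gm20521 on the same strand.

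The balance of the classes is given as a description of these libraries, with no test, because the members were chosen with results known. The summed level of the 3 effectors was 175.0, 115.1 and 159.5 FPKM in irradiated libraries, against 79.9, 68.4 and 101.1 FPKM in mock libraries. The 4 anti-apoptotic genes summed to 146.6, 136.9 and 129.3 FPKM in irradiated libraries, against 126.7, 142.6 and 127.7 FPKM in mock libraries. The effector sums did not overlap, while the anti-apoptotic sums did. Bax made up 59.0 ± 7.06% of the effector sum in irradiated and 65.6 ± 3.13% in mock libraries (SD, n = 3 each). Bax was not called, and its groups overlapped. The ratio of anti-apoptotic to effector FPKM was 0.838, 1.19 and 0.811 in irradiated libraries, against 1.58, 2.08 and 1.26 in mock libraries, and the nearest libraries, irradiated 2 and mock 3, were close.

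The ratio of anti-apoptotic to BH3-only FPKM was 1.35, 1.91 and 1.46 in irradiated libraries, against 2.08, 2.39 and 2.01 in mock libraries. Bad alone made up 69.6 ± 5.55% of the BH3-only sum in irradiated and 66.6 ± 3.09% in mock libraries (SD, n = 3 each), and Bad was not called. When each gene counted equally on the log2 scale, the difference between the groups in this ratio was -0.15, against -0.47 from summed FPKM. With equal weights the groups overlapped in this ratio, as irradiated 2 lay above mock 1 and mock 3. The corresponding log2 difference against the effectors was -0.67 with equal weights and -0.79 from summed FPKM. The ratio of Bcl2l1 to Bax was 0.671, 0.919 and 0.714 in irradiated libraries, against 0.864, 1.09 and 0.847 in mock libraries, and these overlapped.

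**Figure D4:**
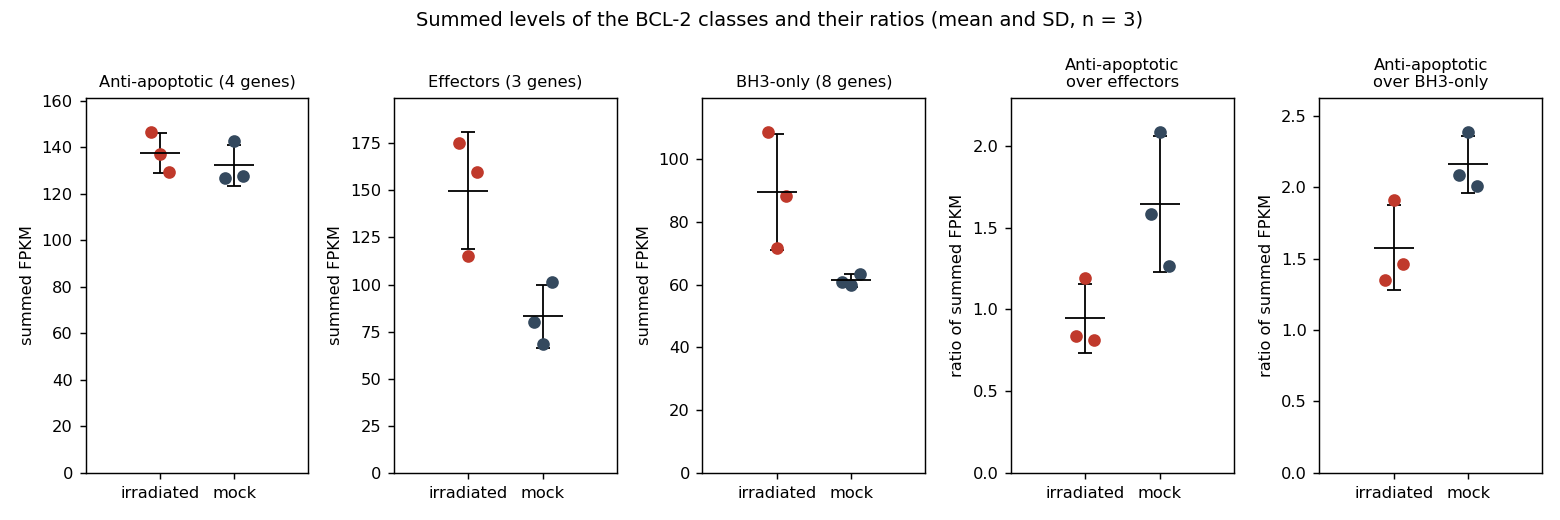
Summed FPKM of the anti-apoptotic, effector and BH3-only classes and the ratios of the sums, by library, with irradiated left and mock right; bars are the mean and SD of 3 libraries. The effector and BH3-only sums are higher in each irradiated library than in any mock library, the anti-apoptotic sums overlap, and both ratios are lower in each irradiated library than in any mock library.

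Of the apoptosome and the proteins that mitochondria release, Apaf1 was the one called. Apaf1, the scaffold that activates caspase-9 and a known p53 and E2F target (chr10), had 3.49, 3.06 and 5.56 FPKM in irradiated libraries, against 1.56, 1.31 and 1.31 FPKM in mock libraries. All irradiated values exceeded the mock values, which lay close together, and irradiated 3 was the highest. The log2 change was 1.23 (SE 0.23, limma adjusted p = 0.017), and the ratio of means was 2.90. Without mock 1, mock 2 or mock 3 the adjusted p was 0.051, 0.060 and 0.053 in that order.

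The partners of APAF1 were not called. Casp9, the apoptosome's caspase, had 8.29, 8.49 and 7.95 FPKM in irradiated libraries, against 10.7, 8.64 and 7.43 FPKM in mock libraries. Cycs, cytochrome c, had 81.1, 55.1 and 52.4 FPKM in irradiated libraries, against 62.1, 113.5 and 69.8 FPKM in mock libraries, with mock 2 far above the others; its coding sequence has many processed pseudogenes in the mouse, so reads could be shared. Diablo, which relieves caspases from their inhibitors, had 21.0, 16.1 and 13.3 FPKM in irradiated libraries, against 19.4, 22.3 and 20.8 FPKM in mock libraries. Of Diablo's exon bases 32.9% are shared with Gm49027 on the same strand. Each of these genes overlapped between the groups, with limma adjusted p-values of 0.76, 0.43 and 0.32 in that order.

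Endog, a mitochondrial nuclease, had 13.6, 24.4 and 23.8 FPKM in irradiated libraries, against 22.4, 23.2 and 26.8 FPKM in mock libraries, and irradiated 1 alone was low; 35.7% of its exon bases also lie in Spout1 on the opposite strand. Aifm1, a mitochondrial flavoprotein that can act in the nucleus, had 15.3, 13.0 and 16.0 FPKM in irradiated libraries, against 14.3, 16.7 and 15.8 FPKM in mock libraries. Neither was called, and the groups overlapped.

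The 3 genes that rose lie on different chromosomes. Their promoters are shown because each was called higher (RefSeq, GRCm38.p6, 250 bases before to 50 after a start). Whether they share a regulator was not tested. Capitals mark the GC box GGGCGG on either strand.
Hrk: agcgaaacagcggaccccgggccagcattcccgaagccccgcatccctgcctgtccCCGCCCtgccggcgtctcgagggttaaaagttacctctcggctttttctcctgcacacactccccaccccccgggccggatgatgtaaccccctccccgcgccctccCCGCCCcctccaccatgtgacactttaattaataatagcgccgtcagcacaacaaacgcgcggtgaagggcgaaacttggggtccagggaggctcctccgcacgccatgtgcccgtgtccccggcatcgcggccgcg
Bok: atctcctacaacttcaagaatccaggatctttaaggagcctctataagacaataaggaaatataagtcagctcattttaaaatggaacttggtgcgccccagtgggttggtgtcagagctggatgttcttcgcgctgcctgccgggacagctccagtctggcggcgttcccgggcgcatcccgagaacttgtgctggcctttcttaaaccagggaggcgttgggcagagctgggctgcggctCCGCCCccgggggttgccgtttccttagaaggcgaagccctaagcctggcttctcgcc
Apaf1: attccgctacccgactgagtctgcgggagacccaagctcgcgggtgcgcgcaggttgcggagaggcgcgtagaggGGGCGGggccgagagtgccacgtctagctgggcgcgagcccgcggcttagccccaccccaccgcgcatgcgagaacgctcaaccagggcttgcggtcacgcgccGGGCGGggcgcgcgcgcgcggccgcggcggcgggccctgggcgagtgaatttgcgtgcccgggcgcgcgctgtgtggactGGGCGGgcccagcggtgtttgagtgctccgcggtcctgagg
They lie at chr5:118169514-118169813 (+ strand) for Hrk, chr1:93685325-93685624 (+ strand) for Bok and chr10:91082694-91082993 (− strand) for Apaf1. The window held 2 GC boxes in Hrk, 1 in Bok and 3 in Apaf1, and 35.7% of all 32851 promoter windows in the table held at least 1. GC boxes were not particular to the genes that rose. Among members not called, the window held 7 in Bcl2, 6 in Bnip3, 3 in Bax and 0 in Bak1. A window of Bmf, which fell, held 1. The p53 half-site, read on both strands, was in 8.36% of all windows. It had no match in the windows of Hrk, Bok and Apaf1, which says only that those letters are not in those windows.

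The inhibitor of apoptosis genes were lower in value but none was called. Xiap, which blocks initiator and executioner caspases directly, had 9.66, 13.5 and 10.4 FPKM in irradiated libraries, against 18.4, 18.5 and 14.1 FPKM in mock libraries. The groups did not overlap, with irradiated 2 close to mock 3, and the log2 change was -0.58 (95% interval -1.01 to -0.15, limma adjusted p = 0.095). Birc2, a ubiquitin ligase of TNF receptor complexes, had 8.92, 9.74 and 8.41 FPKM in irradiated libraries, against 9.86, 12.8 and 10.5 FPKM in mock libraries, again without overlap but by a narrow gap (adjusted p = 0.32). Its relative Birc3 had 0.466, 0.687 and 0.846 FPKM in irradiated libraries, against 1.07, 0.633 and 1.11 FPKM in mock libraries, with overlap.

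The 3 tested adaptors and kinases of the death receptor route were also lower in value and not called. Fadd, which recruits caspase-8 to death receptors, had 1.25, 1.15 and 1.17 FPKM in irradiated libraries, against 1.70, 1.65 and 1.60 FPKM in mock libraries. The groups were tight and did not overlap (log2 change -0.35, 95% interval -0.71 to 0.01, limma adjusted p = 0.21). Ripk1, a kinase that directs TNF signals to survival or death, had 1.38, 1.54 and 1.65 FPKM in irradiated libraries, against 2.03, 2.02 and 1.76 FPKM in mock libraries, without overlap (adjusted p = 0.34). Cflar, the FLIP inhibitor of caspase-8, had 2.51, 3.54 and 2.45 FPKM in irradiated libraries, against 4.01, 3.36 and 3.08 FPKM in mock libraries, with overlap. Ripk3, the kinase of necroptosis, was under the filter and untested, with 0.176, 0.160 and 0.245 FPKM in irradiated libraries, against 0.217, 0.0277 and 0.105 FPKM in mock libraries; its mean was higher in irradiated libraries and the groups overlapped.

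None of the other caspases was called. Casp2, an initiator that responds to DNA damage, had 2.58, 3.53 and 2.17 FPKM in irradiated libraries, against 5.77, 4.56 and 3.27 FPKM in mock libraries, and irradiated 2 lay above mock 3 (log2 change -0.62, 95% interval -1.16 to -0.07, limma adjusted p = 0.15). Casp1, which cleaves interleukin precursors in inflammasomes, had 2.30, 0.686 and 0.616 FPKM in irradiated libraries, against 1.29, 0.967 and 2.15 FPKM in mock libraries. Irradiated 1, with the highest microglial sum, and mock 3, the highest mock library on that sum, were the 2 high libraries. Irradiated 3, with a microglial sum of 221 FPKM against 178 FPKM in mock 3, had the lowest Casp1 value. The part of microglia in Casp1 was not tested. Casp8, the death receptor initiator, had 1.26, 0.735 and 0.979 FPKM in irradiated libraries, against 1.07, 0.683 and 0.974 FPKM in mock libraries. Casp6, an executioner linked to axon degeneration, had 2.84, 2.60 and 2.64 FPKM in irradiated libraries, against 3.01, 2.50 and 3.15 FPKM in mock libraries. Both overlapped.

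Bnip3 and Bnip3l, hypoxia-induced receptors that mark mitochondria for removal, were not called. Bnip3 had 66.7, 55.5 and 55.3 FPKM in irradiated libraries, against 53.8, 90.9 and 65.4 FPKM in mock libraries. Bnip3l had 46.2, 42.3 and 38.4 FPKM in irradiated libraries, against 46.4, 61.9 and 48.8 FPKM in mock libraries. Mock 2 was the highest library for both, as it was for Cycs.

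**Figure D5:**
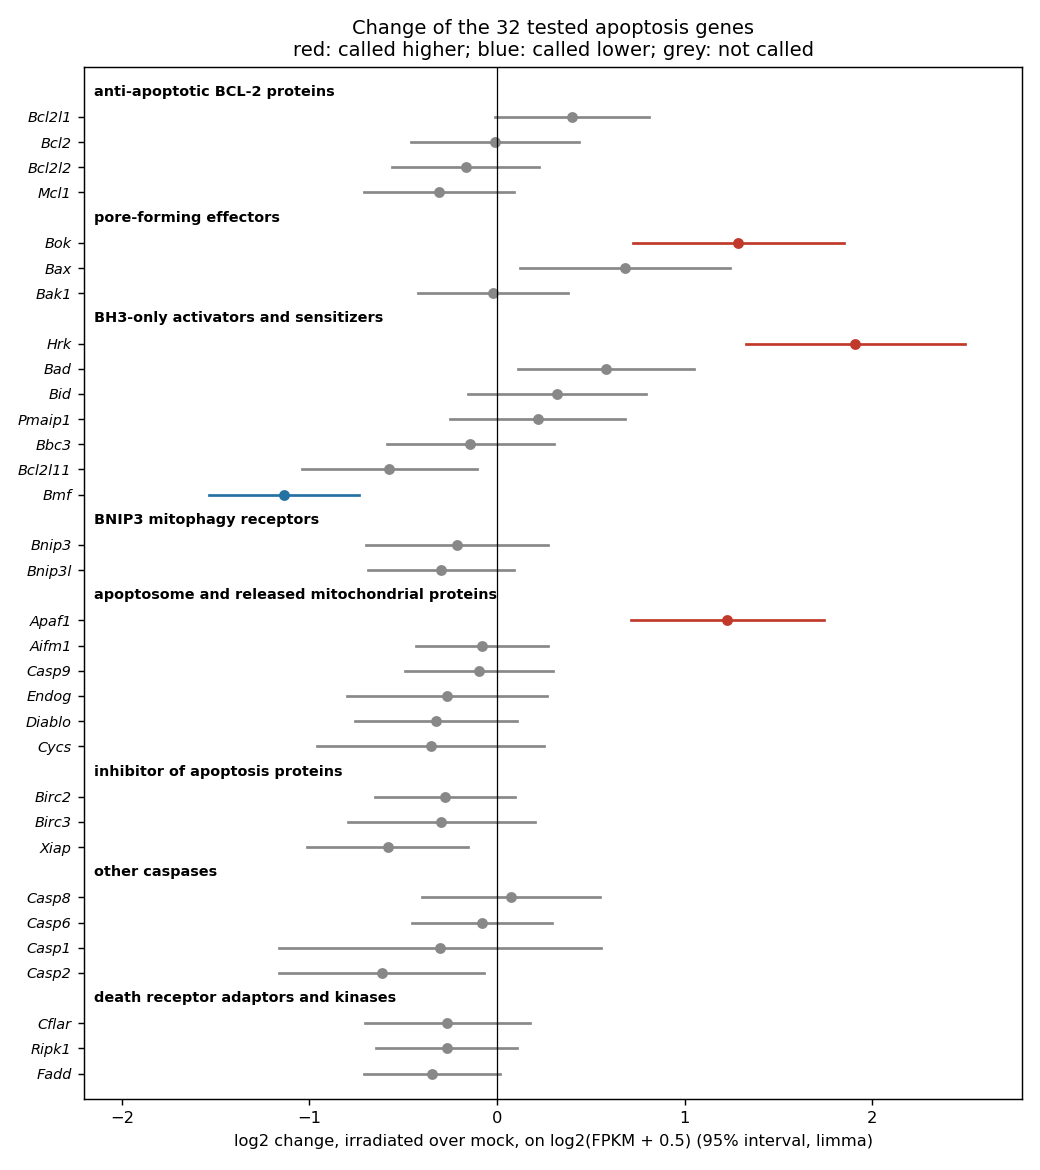
Log2 change of each of the 32 tested genes, irradiated over mock, on the log2(FPKM + 0.5) scale with its 95% interval from limma, grouped by role. Hrk, Bok and Apaf1 (red) and Bmf (blue) are the called genes, and the 3 inhibitor of apoptosis genes and the 3 tested death receptor adaptors and kinases all lie left of 0 without a call.

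Beyond the 34 genes, a list of 64 further genes drawn up for the pathway gave 49 tested. Among them 0 were called higher and 4 lower by limma (before adjustment, 4 on the higher and 5 on the lower side had p under 0.05, beside 11.7% and 13.9% of all genes). That is 8.16% of the 49, beside 7.72% of all tested genes. The 4 were Bcl2l15, a little-studied BCL-2-like gene, Casp12, a rodent caspase of the endoplasmic reticulum, Bag3, a co-chaperone that binds BCL-2, and Ngfr, the p75 neurotrophin receptor, which has a death domain. Bcl2l15 had 0.209, 0.273 and 0.184 FPKM in irradiated libraries, against 4.35, 9.32 and 3.19 FPKM in mock libraries. Casp12 had 0.228, 0.214 and 0.255 FPKM in irradiated libraries, against 1.07, 1.35 and 1.14 FPKM in mock libraries. Every irradiated library was far below every mock library for both. Both genes averaged under 0.5 FPKM in irradiated libraries and passed the filter only through the mock libraries, so their calls add no support to the count of 4 or to its share. The count was 3 with a filter at 1 FPKM and 2 with no filter. Bag3 had a log2 change of -0.83 and Ngfr one of -0.98 (limma adjusted p = 0.039 and 0.031).

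By list, 1 of 10 tested death receptor and ligand genes fell and 1 of 6 further caspase and pyroptosis genes (all genes, 4.24% lower). On a list of BCL-2-like genes and genes tied to them, such as Bag3, Vdac1 and Becn1, 2 of 11 fell, Bcl2l15 and Bag3. Of these, Bcl2l15, like the caspase Casp12, passed the filter only through the mock libraries. None was called among 9 execution and inhibitor genes or 14 genes of the p53 axis. The 9 include Cad, in the mouse an enzyme of pyrimidine synthesis, which was not called. For the p53 axis the unadjusted p fell under 0.05 for 3 of the 14 on the higher side (all genes, 11.7%) and 0 on the lower side (all genes, 13.9%).

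The telencephalic markers, which differed between the groups, were also put into the fit. Their sums did not overlap between the groups, so this fit cannot tell marker level and irradiation apart. The cerebellar markers, which had the wider gap, were not put in. With the mean of the 8 telencephalic markers as a covariate, which leaves 3 residual degrees of freedom, 0 of the 32 genes were called by limma. The log2 change was then 1.20 for Hrk (adjusted p = 0.12), 0.64 for Bok (0.43), 0.96 for Apaf1 (0.36) and -1.06 for Bmf (0.20). Of these 4 the change of Bmf differed least from its value without the covariate. In this fit the calls over all genes were 17 higher and 61 lower.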

How the data were processed

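The deposited table holds 1 column of FPKM per library for 23057 gene symbols, after 1 leftover header line was removed. The authors made these FPKM values; the submitters' processing notes name TopHat, Cufflinks, Cuffdiff and the build mm10. Versions, settings, annotation and the use of strand: not given in the sources used here. Libraries were stranded and depleted of ribosomal RNA, per the labels' protocols. FPKM summed to 472450 to 625782 per library. Among genes under 0.05 FPKM at most 1.76% shared a ratio to mock 1 (to 3 decimals), so whole reads were not recovered, no count model was used and depth is known only from the labels.

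The 14585 genes averaging 0.5 FPKM or more were fitted with limma (version 3.58.1, under R version 4.3.3). The response was log2(FPKM + 0.5) and group the only term, with trended empirical Bayes and two-sided p-values adjusted by Benjamini-Hochberg. Such fold changes understate the change of low genes. The fit was tested on simulated data. The members, roles and lists were chosen with earlier results of these data known. Every member is named, and of the further pathway genes those called, up to 10; withheld genes are not reported here. Exons of 11 members overlap another gene in GENCODE M21, none of them Hrk, Bok, Apaf1 or Bmf. Promoters matched 31 members outside an excluded chromosome. The BH3 search read the longest coding transcript of each gene. Alternatives were other pseudocounts, filters and scalings, the replicate block, a telencephalic covariate and leaving out libraries.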

Additional observations from a re-analysis of the deposited data

How the results depend on the processing

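The counts of 3 higher and 1 lower apoptosis genes were the same with pseudocounts of 0.1 and 1, with no filter, with a filter at 1 FPKM, after median centring, after quantile normalization and without mock 2 and irradiated 1 together, a setting chosen after seeing the data. Leaving out 1 library gave 1 to 3 higher (1 without mock 1 or mock 2) and 1 lower in each case, and the telencephalic covariate gave 0 and 0. Over all genes that covariate gave 17 higher and 61 lower, and leaving out 1 library gave 147 to 673 higher and 254 to 695 lower, each lowered by over 1.5 times without irradiated 3 or any 1 mock library. For the further pathway genes the count higher was 1 after median centring or quantile normalization. Their count lower was 2 without a filter, 0 with the covariate and 2 to 4 with 1 library left out. With equal weights per gene the log2 difference of anti-apoptotic over BH3-only was -0.15. The cause of these shifts was not tested, beyond the fewer samples in settings that leave some out.

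The replicate block gave 3 higher and 1 lower apoptosis genes, with 401 higher and 394 lower over all genes and 3 lower pathway genes. Same-numbered libraries correlated at -0.33, 0.19 and 0.20 in their deviations from the group means, and none of the 3 irradiated libraries correlated best with the mock library of its own number, so the numbers were not taken as pairs.

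Genes whose sign turned were not called in any setting. After median centring Bcl2 was at 0.027 and Bak1 at 0.016 on the log2 scale, and after quantile normalization Bcl2 was at 0.13, Bak1 at 0.050 and Casp6 at 0.063. With the covariate Mcl1 was at 0.057, Bnip3 at 0.32, Bnip3l at 0.062, Casp8 at -0.14, Cycs at 0.40 and Aifm1 at 0.0087. With libraries left out Bcl2 ranged from -0.13 to 0.11, Bak1 from -0.20 to 0.055, Casp8 from -0.17 to 0.20, Casp9 from -0.21 to 0.038, Endog from -0.41 to 0.00088 and Aifm1 from -0.14 to 0.0037. Depth per gene is unknown, so the genes near 1 FPKM, such as Birc3, Casp8 and Pmaip1, carry an error that only the spread between libraries shows.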
